A study of Rattus norvegicus with 8 samples.

Results

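The proteasome genes of the rat were followed in the dentate gyrus, the part of the hippocampus that holds the granule cells, after status epilepticus with and without estradiol replacement. They were the genes on the array whose name began with Psma, Psmb, Psmc, Psmd, Psme or Psmg, with Psmb8 left out. The rule took 54 probes under 45 names, among 35250 gene names on the array. One of these names, Psmc3ip, belongs to a recombination factor that binds an ATPase subunit, and 44 proteasome genes remained. Of these 44 genes, 40 were quantified in all 8 rats.

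All animals were adult female Sprague-Dawley rats of 150 to 200 g that had been ovariectomized a week before hormone treatment. All received an injection of kainic acid (16 mg/kg in the labels), a glutamate receptor agonist that induces status epilepticus, and by the labels the seizures were stopped with pentobarbital after 5 h. COS denotes the 4 oil-treated and CES the 4 estradiol-treated (EB, estradiol benzoate) rats. By the labels CES rats received 4 doses of 2 µg, given 24 h apart, 2 of them before and 2 after status epilepticus. The published methods differ from the labels in the kainic acid dose, in how the seizures were stopped, in the time of tissue collection and in when estradiol was given, and the files do not settle this. No rat without seizures was analysed here, so each comparison is between CES and COS and none is with the unseizured state. Bulk tissue was measured, in which fewer cells of a type and less RNA per cell cannot be told apart.

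The 26S proteasome is the protease that degrades proteins tagged with ubiquitin. Its 20S core is a barrel of alpha rings, which form the gate, and beta rings, of which the subunits encoded by Psmb5, Psmb6 and Psmb7 cut peptide bonds. The 19S regulatory particle caps the barrel. It holds a ring of ATPases (Psmc genes) that unfold substrates and non-ATPase subunits (Psmd genes) that bind and remove ubiquitin. Interferon induces alternative catalytic subunits, among them Psmb9 and Psmb10, which take the places of Psmb6 and Psmb7 in the immunoproteasome, and the activator formed by Psme1 and Psme2, which opens the core without the 19S particle. Proteasomes also act at synapses, where they take part in plasticity.

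A level is given as the log2 of a spot's background-subtracted signal over the median valid spot of the same channel, so 0 is that median. A valid spot had a foreground of at least 2 times its local background. A difference is CES minus COS on this log2 scale, fitted with limma over all 20825 quantified genes, and a gene was called where its Benjamini-Hochberg adjusted p was under 0.05. Each of the 4 arrays carried 2 rats of the same group, replicates 1 and 3 in Cy3 and replicates 2 and 4 in Cy5.

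Facts that touch every value come first. Valid spots made up 74.6% to 88.9% of a channel in COS rats and 70.7% to 81.5% in CES rats. The median difference of all genes was -0.25 under the scaling used here, and 0.05 to 0.14 under 4 others, namely loess with Aquantile, quantile, division by the median over spots that were valid in every rat, and the authors' log2 table. Many differences are for this reason stated with that median subtracted as well, as relative to all genes. CES replicate 2 stood apart from its group. Over all quantified genes it correlated with the COS rats at r = 0.97 to 0.98 and with the other CES rats at r = 0.95 to 0.96, whereas those other CES rats correlated with the COS rats at 0.93 to 0.94. Counts of the proteasome genes, and the values of theirs that it moved most, are given with and without it. Since this rat was singled out for its likeness to COS, leaving it out favours larger differences. Values, calls and counts without it are for this reason descriptions and not tests. The tissue label was checked against markers. Of 5 granule cell markers, Prox1 was not well above background in any rat, Calb1, C1ql3 and C1ql2 were so in all, and Dsp was so in 3 COS and 2 CES rats. Dsp and C1ql2 were called lower in CES, and Calb1 (-0.28) and C1ql3 (0.17) were not called. The pyramidal cell markers Wfs1 and Fibcd1 were called higher in CES, with differences of 0.98 (adjusted p = 0.00897) and 0.99 (adjusted p = 0.0127, limma). Fibcd1 was well above background in none of the COS and 2 of the CES rats. Bok, the remaining pyramidal cell marker listed, was at 0.20 and not called (limma adjusted p = 0.461).

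The probes that carry the main differences are printed first, as the array designer placed them on the rat build rn4, 5′ to 3′ in the sense of the transcript. The first 3 belong to interferon-inducible members, Psmb6 encodes the constitutive counterpart of Psmb9, and the last 3 belong to the other genes that were called lower under every scaling listed above. A span over 60 bases means that the probe crosses at least 1 intron.
Psme1 (chr15:33714566-33714852, plus strand): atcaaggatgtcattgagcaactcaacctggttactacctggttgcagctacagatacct
Psme2 (chr15:33724194-33725273, minus strand): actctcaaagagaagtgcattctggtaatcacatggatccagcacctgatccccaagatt
Psmb9 (chr20:4806341-4806400, plus strand): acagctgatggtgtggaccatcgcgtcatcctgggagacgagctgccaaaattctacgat
Psmb6 (chr10:57371368-57371427, plus strand): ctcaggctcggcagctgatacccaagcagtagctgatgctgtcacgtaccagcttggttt
Psme4 (chr14:111981267-111981326, plus strand): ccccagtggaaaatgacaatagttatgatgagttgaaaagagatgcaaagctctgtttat
Psmd3 (chr10:87465622-87465681, plus strand): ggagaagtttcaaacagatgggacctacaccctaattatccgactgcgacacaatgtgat
Psmd13 (chr1:201048034-201048330, plus strand): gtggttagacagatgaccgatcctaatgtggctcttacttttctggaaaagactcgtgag
All 54 probes had a position on rn4 and 22 of them crossed an intron. The probes of Psme1 and Psme2 lay 9342 bases apart on chromosome 15 on opposite strands. The Psmb9 probe lay on chromosome 20, which carries the major histocompatibility complex of the rat. No annotation of that build was used, so the exons are not named.

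The median proteasome gene was lower in CES than in COS under the scaling used here, by little more than the genes of the array as a whole, and under the scaling over shared spots and the authors' table the median difference turned to 0.03 and 0.002. Of the 40 quantified genes, 16 were called lower, 0 higher and 24 were not called. Among all genes 28.6% were called lower and 5.74% higher, against 40.0% of the proteasome genes called lower. In a fit limited to the 13174 genes well above background in all rats, 39.8% were called lower, against 42.5% of the proteasome genes. All 40 proteasome genes were among them, with a median of -0.07 relative to those genes. The shares of all genes given below include dimmer genes. The median difference of the 40 genes was -0.37, which is -0.12 relative to all genes, and 28 of them lay below the median of all genes. Without CES replicate 2, 17 were called lower and 0 higher, where 33.0% of all genes were called lower and 8.7% higher.

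The calls also rested on single rats. Psme1 and Psmd13 were called lower whichever rat was left out. Without COS replicate 3 they were the only 2 called, at adjusted p = 0.0492 and 0.0449 (limma). Without CES replicate 1 the calls were those 2 with Psme2, Psme4 and Psmd3, and without COS replicate 1 those 5 with Psmd5. The share of all genes called lower fell as well, from 28.6% with all rats to 5.48% without COS replicate 3. It was 12.3% without CES replicate 1 and 17.5% without COS replicate 1, so the loss of calls was not particular to the proteasome genes.

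In each of the 4 other scalings 4 proteasome genes were called lower, 2 were called higher and 34 were not called, and 8.56% to 10.8% of all genes were called lower and 14.4% to 16.2% higher. The same 6 genes were called in each of these scalings. Psme1, Psme4, Psmd3 and Psmd13 were lower, as they were in the scaling used here, and Psma3 and Psmd6, which had not been called, were higher. By sign alone, 37 of 40 genes were lower in CES under the scaling used here, as were 68.6% of all genes. Of the 37, 18 were lower under it and under 6 alternatives of scaling or signal, a count not taken over all genes.

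**Figure D1:**
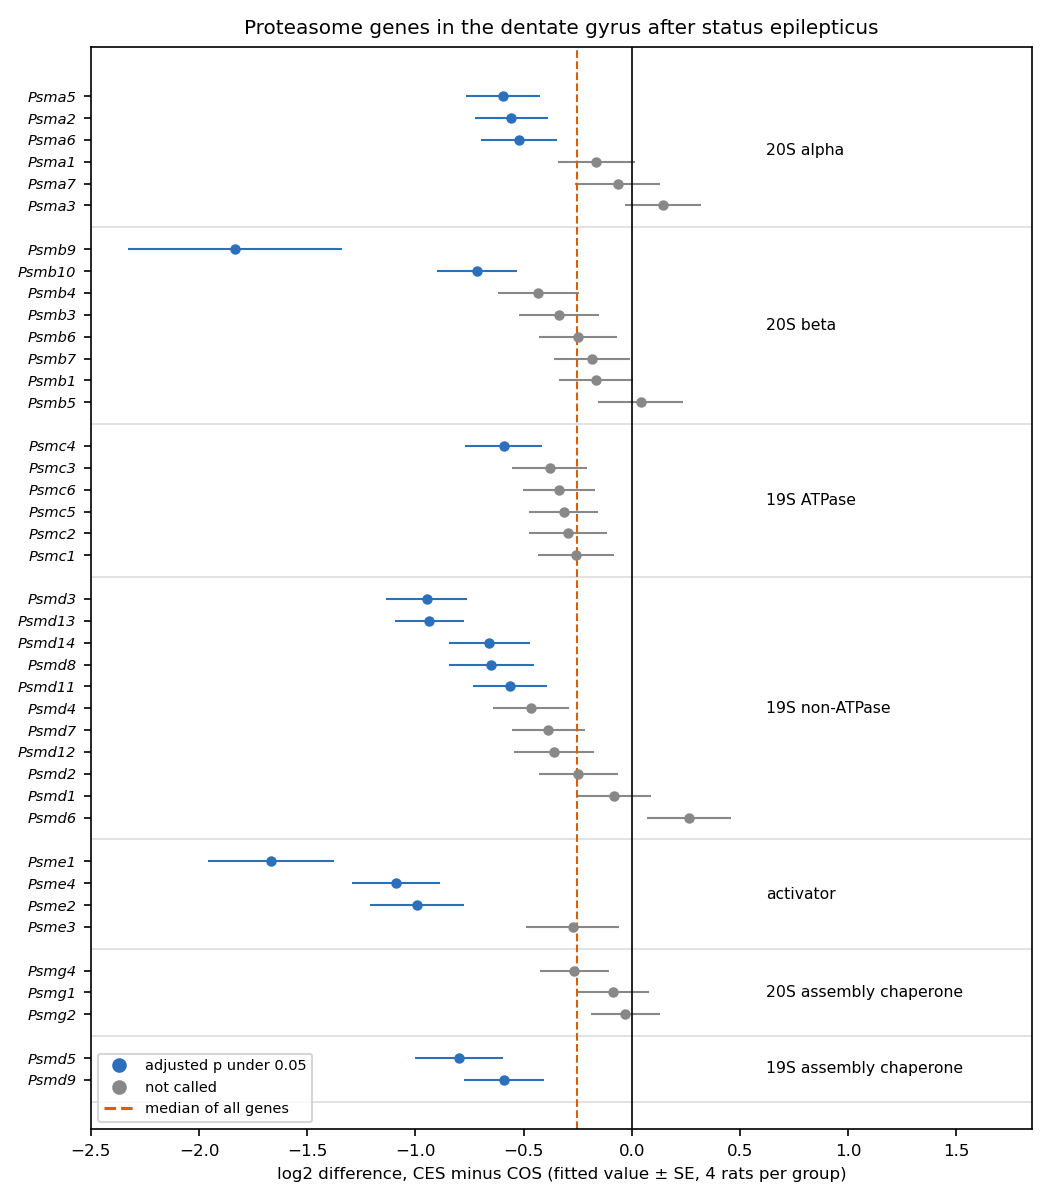
Fitted log2 difference between CES and COS (x axis, ± SE, 4 rats per group) for each of the 40 quantified proteasome genes, grouped by role, with called genes in blue and the median of all genes (-0.25) as a dashed line. Psmb9 (-1.83) and Psme1 (-1.67) lie farthest to the left, and most of the constitutive 20S and ATPase genes lie near the dashed line.

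All 40 quantified genes were well above background in all 8 rats, and no member spot was saturated. In 16 of 40 genes every CES rat was below every COS rat, where 19.7% of all genes showed that pattern. With CES replicate 2 left out this held for 17 genes, against 22.4% of all genes. The median level of the 40 genes, taken relative to the rat's own median of all genes, was 4.24, 4.27, 4.21 and 4.39 in COS replicates 1 to 4. In CES replicates 1 to 4 it was 3.88, 4.33, 4.13 and 4.22. The groups overlapped in this summary, since CES replicate 2 and CES replicate 4 lay within the COS range.

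The interferon-inducible members, a set drawn from the beta and activator genes, had the largest median difference of the groups. All their differences were negative, but they were not each the largest. Psmb10 (-0.71) was lowered less than Psme4 (-1.09), Psmd3 (-0.95), Psmd13 (-0.94) and Psmd5 (-0.80), which are outside the set. All 4 of them, Psmb9, Psmb10, Psme1 and Psme2, were called lower, where 28.6% of all genes were. Their median difference was -1.33, or -1.08 relative to all genes. Without CES replicate 2 all 4 were again called and the median relative difference was -1.33. Called lower here does not hold for each of them under the other scalings, as given for each below.

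Psme1 encodes the alpha subunit of the interferon-inducible activator ring. Its level was 5.62, 5.60, 5.60 and 5.23 in the 4 COS rats and 3.53, 4.78, 3.72 and 3.35 in the 4 CES rats. The groups did not overlap, and CES replicate 2 was the CES rat nearest to COS. The difference was -1.67 ± 0.29 (SE, n = 4 and 4, limma adjusted p = 0.00445), which is a 3.18-fold lower level in CES, and -2.02 without CES replicate 2. It was called lower in 22 of 23 alternatives, the exception being the methods' t-test, adjusted here over all genes (adjusted p = 0.0903).

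Psme2 encodes the beta subunit of the same ring. Its level was 4.92, 4.46, 4.76 and 4.30 in COS and 3.32, 3.99, 3.89 and 3.27 in CES, again with no overlap. The difference was -0.99 ± 0.22 (limma adjusted p = 0.00891), and -1.18 without CES replicate 2. Under the 4 other scalings the adjusted p was 0.0552 to 0.0763, so Psme2 was not called there, nor without COS replicate 3 (-0.96, adjusted p = 0.0727).

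Psmb9 encodes the immunoproteasome counterpart of the Psmb6 subunit. Its level was 4.18, 3.27, 3.23 and 2.83 in COS and 0.88, 3.05, 1.63 and 0.61 in CES. CES replicate 2 lay inside the COS range and the other CES rats lay more than a log2 unit below it. The difference was -1.83 ± 0.49 (limma adjusted p = 0.0189). Leaving out CES replicate 2 brought it to -2.44, given as a value only. Under the 4 other scalings the difference was -1.44 to -1.48 and not called, with an adjusted p of 0.102 to 0.118. It was also not called without COS replicate 1, COS replicate 3 or CES replicate 1 (-1.52, -1.86 and -1.51, adjusted p = 0.0644, 0.107 and 0.0908).

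Psmb10, the counterpart of Psmb7, was at 5.49, 5.38, 5.38 and 5.09 in COS and at 4.40, 4.92, 4.73 and 4.43 in CES. The groups did not overlap. The difference was -0.71 ± 0.18 (limma adjusted p = 0.0158), and -0.84 without CES replicate 2. Under the 4 other scalings it was -0.32 to -0.45, not called. Without COS replicate 1, COS replicate 3 or CES replicate 1 it was not called either (adjusted p = 0.0641, 0.0918 and 0.0703).

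The remaining activators differed from each other. Psme4 encodes a large activator that caps the core in the nucleus, among other places. Its level was 2.48, 2.00, 2.36 and 2.04 in COS and 0.95, 1.55, 1.14 and 0.87 in CES, without overlap. Its difference was -1.09 ± 0.20 (limma adjusted p = 0.00507), and -1.28 without CES replicate 2. Both of its probes gave the call, at -1.06 and -1.19. Without COS replicate 3 the difference was -1.05 and not called (adjusted p = 0.0517). Psme3, the gene of a nuclear activator related to Psme1 and Psme2, was at 4.80, 4.63, 5.38 and 4.46 in COS and 4.24, 4.57, 4.87 and 4.51 in CES. These ranges overlapped, and its difference of -0.27 ± 0.21 was close to that of all genes and not called (limma adjusted p = 0.351).

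**Figure D2:**
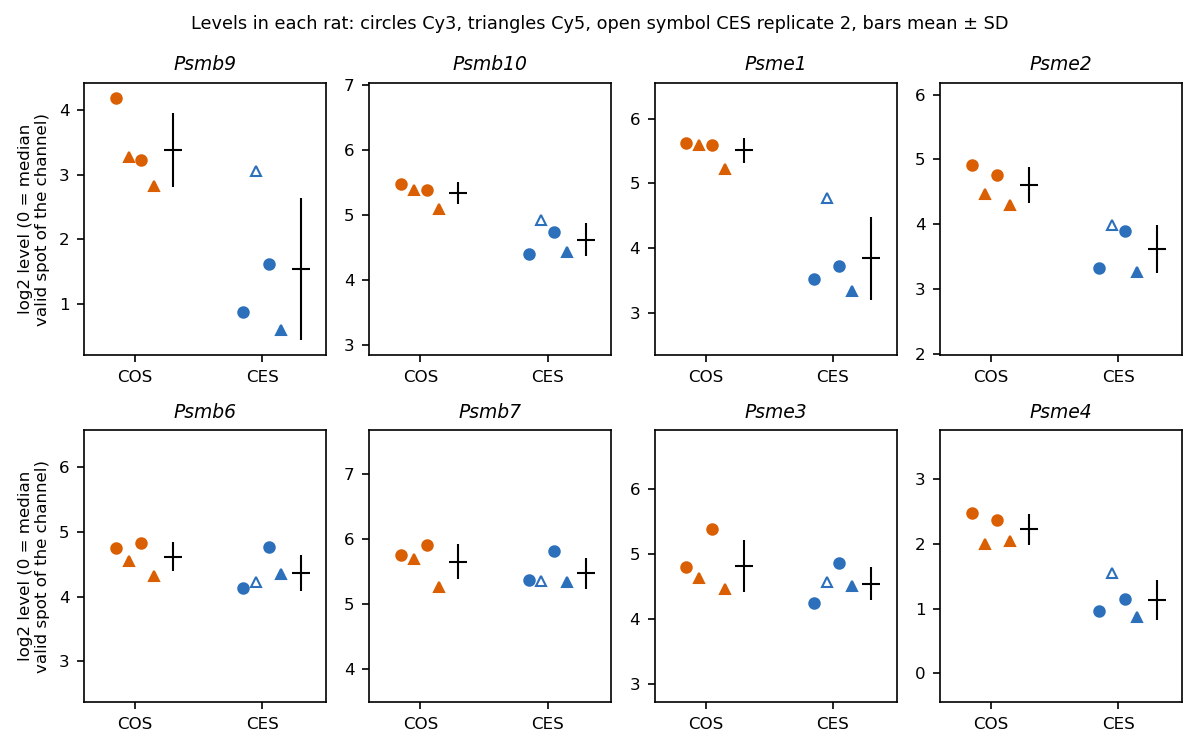
Log2 level in each rat (y axis, each panel spanning the same number of log2 units) of the 4 interferon-inducible genes Psmb9, Psmb10, Psme1 and Psme2, and of Psmb6, Psmb7, Psme3 and Psme4, with circles for Cy3, triangles for Cy5, an open symbol for CES replicate 2 and bars for mean ± SD. For Psme1 the 4 COS rats lie at 5.23 to 5.62 and the CES rats at 3.35 to 4.78, while the groups overlap for Psmb6, Psmb7 and Psme3.

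The constitutive catalytic subunits were not called in either direction. Psmb5, which encodes the chymotrypsin-like subunit, was at 6.39, 6.18, 6.53 and 5.86 in COS and 5.98, 6.23, 6.66 and 6.25 in CES. Psmb6, of the caspase-like subunit, was at 4.76, 4.55, 4.83 and 4.32 in COS and 4.14, 4.23, 4.77 and 4.34 in CES. Psmb7, of the trypsin-like subunit, was at 5.75, 5.69, 5.90 and 5.26 in COS and 5.36, 5.35, 5.82 and 5.34 in CES. In each of these genes the groups overlapped. The differences were 0.04 ± 0.19 for Psmb5, -0.25 ± 0.18 for Psmb6 and -0.18 ± 0.18 for Psmb7 (limma adjusted p = 0.89, 0.316 and 0.452).

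To set the inducible members against constitutive ones without the scaling, the log2 difference between 2 genes was taken within each rat, where any factor common to a channel cancels. The 4 pairs were chosen by role after the values were seen. Psmb9 minus Psmb6 was -0.58, -1.28, -1.61 and -1.50 in COS and -3.25, -1.18, -3.14 and -3.74 in CES. It changed by -1.59 in CES against COS, and 3 of 4 CES rats were below every COS rat. The exact two-sided permutation test over rats gave p = 0.114 (adjusted over the 4 pairs, 0.114), and 4 rats against 4 can reach 0.0286 at the lowest.

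Psmb10 minus Psmb7 was -0.26, -0.30, -0.52 and -0.17 in COS and -0.96, -0.43, -1.09 and -0.91 in CES, a change of -0.53 (exact permutation p = 0.0571, adjusted 0.0762). Psme1 minus Psme3 was 0.81, 0.96, 0.21 and 0.77 in COS and -0.71, 0.21, -1.15 and -1.16 in CES. All 4 CES rats were below the lowest COS rat, though CES replicate 2 only just, and the change of -1.39 had an exact permutation p of 0.0286 (adjusted 0.0762). Psme2 minus Psme3 changed by -0.72 (exact permutation p = 0.0571, adjusted 0.0762). None of the 4 pairs passed after adjustment. Without CES replicate 2 the changes were -2.14, -0.67, -1.70 and -0.84, given as values only, since that rat was singled out for its likeness to COS.

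**Figure D3:**
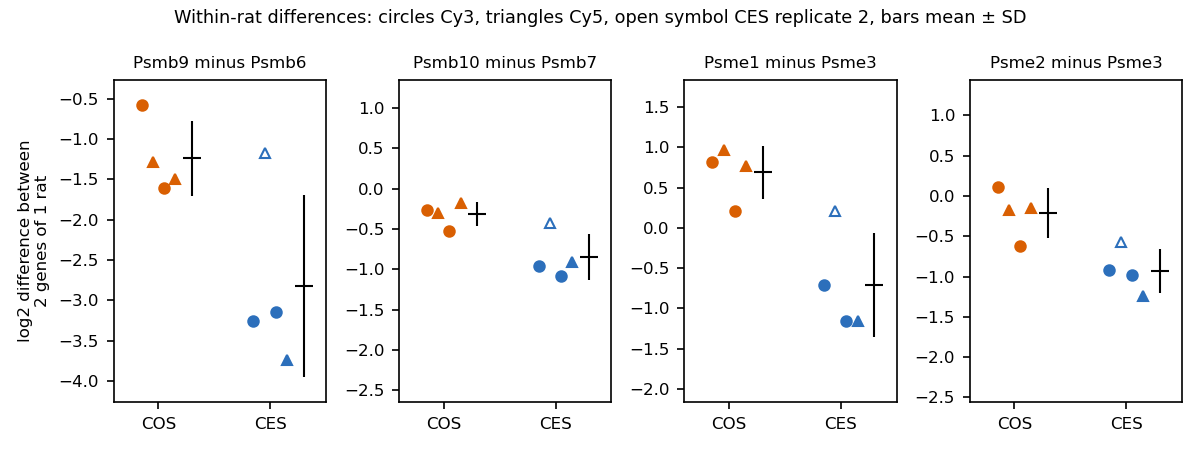
Difference in log2 level between an inducible gene and a constitutive or nuclear relative within each rat (y axis, log2) for 4 pairs, with circles for Cy3, triangles for Cy5, an open symbol for CES replicate 2 and bars for mean ± SD. In the pair Psmb9 minus Psmb6, CES replicate 2 (-1.18) lies among the COS rats and the other CES rats lie at -3.14 to -3.74.

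Markers of immune and vascular cells were read from the same fit, in which 28.6% of all genes were called lower and 5.74% higher. Of the 7 microglial markers, Itgam, Csf1r, Cd68 and C1qa were called lower, P2ry12 was called higher, and Aif1 and Cx3cr1 were not called. The summed level of the 7 was 6.10 to 6.76 in COS and 5.28 to 6.03 in CES on the log2 scale, and 5.94 in CES replicate 2. Of the 3 other leukocyte markers Lyz2 was called lower at -2.54, and Ptprc (-0.51) and Cd3e (0.23) were not called. The sum of the 3 was 5.90 to 6.77 in COS, 4.73 in CES replicate 2 and 2.95 to 3.92 in the other CES rats. Sums were taken over linear signals, so this one is nearly that of Lyz2 alone. The COS means were 6.27 for Lyz2, -1.39 for Ptprc and -2.19 for Cd3e. The T cell marker Cd3e was well above background in none of the COS rats and 2 CES rats. Of the 5 quantified endothelial markers Flt1, Tek, Kdr and Vwf were called lower and Cldn5 was not called. The summed level of the 5 was 5.37 to 6.0 in COS, 5.45 in CES replicate 2 and 4.20 to 4.67 in the other CES rats. Every one of these microglial, leukocyte and endothelial markers that was called kept its sign under the 4 other scalings, while Aif1 kept it in 2 of them and Cldn5 in 0. In these scalings Cd68, P2ry12 and Lyz2 were called each time and Itgam, C1qa, Tek, Kdr and Vwf were not. Of the neuronal markers Syt1 was called higher and Nefl lower, of 6 astrocyte markers Aldh1l1 and Gja1 were called higher, and none of 6 oligodendrocyte and 4 quantified choroid plexus markers was called. Without CES replicate 2 the microglial marker Cx3cr1 and the astrocyte marker Gfap were called lower besides, and Slc1a2 of astrocytes and Cnp of oligodendrocytes higher. The part of these cell types in the differences of the proteasome genes was not tested.

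The 250 bases before the RefSeq transcription start (build GRCr8) are printed for the 4 interferon-inducible genes, with capitals for each match on either strand to the core of the interferon-stimulated response element, spelled GAAA, any 2 bases and GAAA, or to the gamma-activated site, spelled TTCNNNGAA.
Psme2 (chr15:33052752-33053001, minus strand): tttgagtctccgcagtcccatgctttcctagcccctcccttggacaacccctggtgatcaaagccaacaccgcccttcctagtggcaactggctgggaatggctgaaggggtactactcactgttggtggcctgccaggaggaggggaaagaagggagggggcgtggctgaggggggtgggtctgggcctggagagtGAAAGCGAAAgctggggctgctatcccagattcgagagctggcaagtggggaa
Psmb10 (chr19:50743293-50743542, minus strand): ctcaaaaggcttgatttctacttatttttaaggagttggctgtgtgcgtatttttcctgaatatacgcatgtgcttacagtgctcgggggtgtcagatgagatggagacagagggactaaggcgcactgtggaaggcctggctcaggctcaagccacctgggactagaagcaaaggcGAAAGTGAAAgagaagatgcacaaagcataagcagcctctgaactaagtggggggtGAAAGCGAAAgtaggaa
Psme1 (chr15:33038721-33038970, plus strand): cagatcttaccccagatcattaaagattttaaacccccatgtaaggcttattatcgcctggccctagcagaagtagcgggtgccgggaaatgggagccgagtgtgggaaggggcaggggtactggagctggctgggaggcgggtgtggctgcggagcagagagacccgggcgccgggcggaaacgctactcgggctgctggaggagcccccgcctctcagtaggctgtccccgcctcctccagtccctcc
Psmb9 (chr20:4668750-4668999, plus strand): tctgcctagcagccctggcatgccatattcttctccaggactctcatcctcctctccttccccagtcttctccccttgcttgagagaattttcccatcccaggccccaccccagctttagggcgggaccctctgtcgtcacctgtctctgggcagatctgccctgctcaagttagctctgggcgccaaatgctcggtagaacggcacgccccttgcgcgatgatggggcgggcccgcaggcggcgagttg
Psme2 held 1 match and Psmb10 held 2, each on the strand of the gene, and the windows of Psme1 and Psmb9 held neither motif. A match is a run of letters and not a binding site. Among all 33469 RefSeq promoters, taken from 250 bases before to 50 after the start, the first motif occurred in 3.92% and the second in 8.87%. Of the 39 proteasome genes with an entry, 6 held the first (Psma4, Psmb3, Psmb10, Psmd7, Psme2 and Psmg4) and 3 held the second (Psmd3, Psmc6 and Psmd7).

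A pair of motifs linked to constitutive proteasome genes were also searched on both strands. The antioxidant response element core, spelled TGACNNNGC, occurred in 8 of 39 member promoters and in 12.1% of all. CCAAT occurred in 18 of 39 and in 37.5% of all. Of the 15 called genes with an entry, 3 held the first and 5 the second, and of 21 genes not called, 4 and 10 did. No test was run on these counts.

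Among the alpha subunits, which gate the core, 3 of 6 quantified genes were called lower, against 28.6% of all genes, and 0 higher. Psma5 was at 6.02, 5.76, 6.30 and 5.73 in COS and 5.20, 5.41, 5.58 and 5.24 in CES, with no overlap and a difference of -0.60 ± 0.17 (limma adjusted p = 0.0248). Psma2 was at 5.18, 4.82, 5.24 and 4.62 in COS and 4.30, 4.29, 4.76 and 4.28 in CES, overlapping through CES replicate 3, with a difference of -0.56 ± 0.17 (adjusted p = 0.029). Psma6, the third, was at -0.52. None of the 3 was called under the 4 other scalings.

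Psma3 had a positive difference on its one usable probe. It was at 3.04, 2.86, 3.4 and 2.63 in COS and at 3.07, 2.87, 3.42 and 3.14 in CES, and the groups overlapped almost wholly. Its difference was 0.14 ± 0.18 (limma adjusted p = 0.558), or 0.40 relative to all genes. Under the 4 other scalings it was called higher, at 0.49 to 0.55 (adjusted p = 0.0308 to 0.0378). The other of its 2 probes carried an outlier mark, and with marked spots kept the difference of the gene turned to -0.23 (adjusted p = 0.317). Psma1 and Psma7 were not called (-0.16 and -0.06). Psma4, whose single spot carried an outlier mark, had no value here and was called lower at -0.55 when marked spots were kept (adjusted p = 0.0329).

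Of the 8 quantified beta genes only Psmb9 and Psmb10 were called, both lower, where 28.6% of all genes were called lower. The other 6 had differences from -0.43 (Psmb4) to 0.04 (Psmb5), with Psmb3 at -0.34 and Psmb1 at -0.16. Psmb4 did not overlap between the groups yet was not called (adjusted p = 0.101). With the inducible members left out, the median difference of the 12 quantified alpha and beta genes was 0.04 relative to all genes, and 5 of the 12 lay below the median of all genes. Psmb2 had no value because of an outlier mark, and was called lower at -0.72 with marked spots kept (adjusted p = 0.0139). Psmb11, the catalytic subunit of the thymus, was not well above background in any rat, and its probe was not quantified.

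The genes of the ATPase ring had differences close to that of the genes as a whole. All 6 Psmc genes lay between -0.26 and -0.59, and 1 of them, Psmc4, was called lower, against 28.6% of all genes. Psmc4 was at 5.26, 5.13, 5.43 and 4.86 in COS and 4.42, 4.73, 4.76 and 4.40 in CES without overlap, a difference of -0.59 ± 0.18 (limma adjusted p = 0.0279). Its 2 probes gave -0.54 and -0.63. Psmc3 was at 6.31, 6.24, 6.60 and 6.07 in COS and 5.72, 5.92, 6.16 and 5.91 in CES (-0.38, not called), and Psmc6 differed by -0.33, not called. The median difference of the ring was -0.07 relative to all genes. Under the 4 other scalings Psmc4 was not called.

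Outside the activators and the inducible genes, the largest differences were in the lid of the 19S particle, the part that carries the deubiquitinase. Psmd3, a lid subunit, was at 4.01, 4.03, 4.14 and 3.48 in COS and 3.05, 3.15, 3.01 and 2.66 in CES. Its difference was -0.95 ± 0.19 (limma adjusted p = 0.00605). Psmd13, another lid subunit, was at 4.33, 4.04, 4.53 and 3.88 in COS and 3.25, 3.22, 3.44 and 3.13 in CES, a difference of -0.94 ± 0.16 (adjusted p = 0.00416). In both genes every CES rat, CES replicate 2 included, was below every COS rat. They were called in 20 and 21 of 23 alternatives, and Psmd3 was not called without COS replicate 3 (-0.88, adjusted p = 0.0543).

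Psmd14 encodes the deubiquitinase itself, which cuts ubiquitin chains from substrates as they enter. It was at 4.76, 4.72, 5.18 and 4.72 in COS and 4.21, 4.50, 4.07 and 3.98 in CES, without overlap. The difference was -0.66 ± 0.19 (limma adjusted p = 0.0233), and the gene was not called under the 4 other scalings. Psmd11, a lid subunit known for promoting assembly of the 26S form, was at 4.42, 3.94, 4.51 and 3.71 in COS and 3.62, 3.46, 4.07 and 3.17 in CES. Its groups overlapped and its difference was -0.56 ± 0.17 (adjusted p = 0.0294). Its lid neighbour Psmd12 was at 5.97, 5.94, 6.48 and 5.96 in COS and 5.50, 5.86, 5.89 and 5.67 in CES, which do not overlap, but the difference of -0.36 ± 0.19 was not called (adjusted p = 0.158). Psmd8 was called lower at -0.65.

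Psmd6, also of the lid, was the one quantified 19S gene with a positive difference. It was at 4.20, 4.04, 3.82 and 3.41 in COS and 4.02, 4.15, 4.37 and 3.98 in CES, overlapping. The difference was 0.26 ± 0.20 (limma adjusted p = 0.321), and under the 4 other scalings it was 0.58 to 0.71 and called (adjusted p = 0.0269 to 0.0445). In all, 5 of the 11 non-ATPase genes were called lower, against 28.6% of all genes, and 0 higher. Their median difference was -0.21 relative to all genes.

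The ubiquitin receptors of the 19S particle were not called. Psmd4 was at 6.22, 6.21, 6.50 and 6.01 in COS and 5.57, 5.82, 6.05 and 5.63 in CES (-0.47 ± 0.18, limma adjusted p = 0.0633). Once CES replicate 2 was left out its difference was -0.52. Psmd2 was at 6.49, 6.39, 6.81 and 6.23 in COS and 5.98, 6.18, 6.51 and 6.26 in CES, overlapping (-0.25 ± 0.18, adjusted p = 0.319). The probes of Psmd2 disagreed, since the probe that crosses an intron was called lower at -0.56 (adjusted p = 0.0335, fitted over all probes) and the other was at -0.15 (adjusted p = 0.586). The probes of Psmd7 and Psmd1 disagreed likewise. Psmd7 was at -0.61 (adjusted p = 0.0192) on the probe that crosses an intron and at -0.34 on another, and Psmd1 at -0.35 and -0.01, neither called. In each of these 3 genes the probe crossing an intron gave the lower value.

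The assembly chaperones are given by what they build. The chaperones of the 20S core, Psmg1, Psmg2 and Psmg4, were not called, and Psmg3 was not found under that name on the array. Psmg1 was at 5.34, 4.97, 5.47 and 4.90 in COS and 4.95, 4.94, 5.40 and 5.03 in CES (-0.09 ± 0.17, limma adjusted p = 0.714). Psmg2 was at 1.78, 1.46, 1.91 and 1.36 in COS and 1.52, 1.49, 1.83 and 1.56 in CES (-0.03 ± 0.16). Psmg4 was at 3.58, 3.32, 3.61 and 3.16 in COS and 3.05, 3.00, 3.42 and 3.14 in CES (-0.27 ± 0.16). All 3 overlapped between the groups.

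Of the chaperones of the 19S base, which hold ATPases until the ring closes, both quantified genes were called lower, where 28.6% of all genes were. Psmd5 was at 4.00, 3.90, 4.30 and 3.68 in COS and 3.02, 3.54, 3.27 and 2.85 in CES, without overlap, a difference of -0.80 ± 0.20 (limma adjusted p = 0.0153). Psmd9 was at 3.64, 3.42, 3.89 and 3.27 in COS and 2.76, 3.09, 3.24 and 2.76 in CES, also without overlap (-0.59 ± 0.18, adjusted p = 0.0327). Both kept a negative difference under the 4 other scalings, where neither was called. The third, Psmd10, had no value because of an outlier mark, and was at 0.07 with marked spots kept (adjusted p = 0.772). Psmc3ip, which is no proteasome gene, was called lower at -0.69 (adjusted p = 0.0374).

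Of the wider ubiquitin-proteasome pathway, a list of 37 names had 30 on the array and 25 quantified. Of these 25, 8 were called lower, against 28.6% of all genes, 0 were called higher and 17 were not called, and their median difference was -0.12 relative to all genes. Without CES replicate 2, 11 were called lower, where 33.0% of all genes were, and 1 higher. The ubiquitin gene Ubb (-0.09) was not called (limma adjusted p = 0.691), nor were the activating enzymes Uba1 and Uba6, nor Pomp, the maturation factor of the core.

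The largest called difference on the list was in Nfe2l2, the transcription factor that acts through antioxidant response elements, at -1.46 ± 0.16 (limma adjusted p = 0.0025). Zfand2a, a heat-inducible proteasome-binding protein, was at -1.38 ± 0.33 (adjusted p = 0.0126), but it was well above background in 3 COS rats and 1 CES rat, so the size of its difference is uncertain. The protease Ddi2, which cleaves the related factor Nfe2l1, was at -1.02 ± 0.34 (adjusted p = 0.0427), or -1.45 without CES replicate 2, and the shuttle protein Ubqln1 at -0.94 ± 0.19 (adjusted p = 0.00686). Vcp, the ATPase that extracts ubiquitylated proteins from complexes, was at -0.83 ± 0.17 (adjusted p = 0.007). Txnl1, Akirin2, which brings proteasomes into the nucleus, and Ubqln4 were called lower at -0.71, -0.70 and -0.54. Under the 4 other scalings Nfe2l2, Ubqln1 and Vcp were called lower each time, and Zfand2a, Ddi2, Akirin2 and Ubqln4 were not called. Uchl1, an abundant hydrolase of neurons, was at 0.49 ± 0.20 (adjusted p = 0.085), or 0.68 without CES replicate 2. Under the 4 other scalings it was called higher each time, where 14.4% to 16.2% of all genes were called higher.

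The share of proteasome genes called lower changed with the processing together with that of all genes. It was 40.0% against 28.6% of all genes in the processing used here, 10.0% against 9.33% with loess and Aquantile, and 2.5% against 2.36% with normexp background correction, under which Psme1 alone was called and 0.667% of all genes were called higher. Single rats moved it too, from 5.0% against 5.48% without COS replicate 3 to 55.0% against 33.4% without CES replicate 3.

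**Figure D4:**
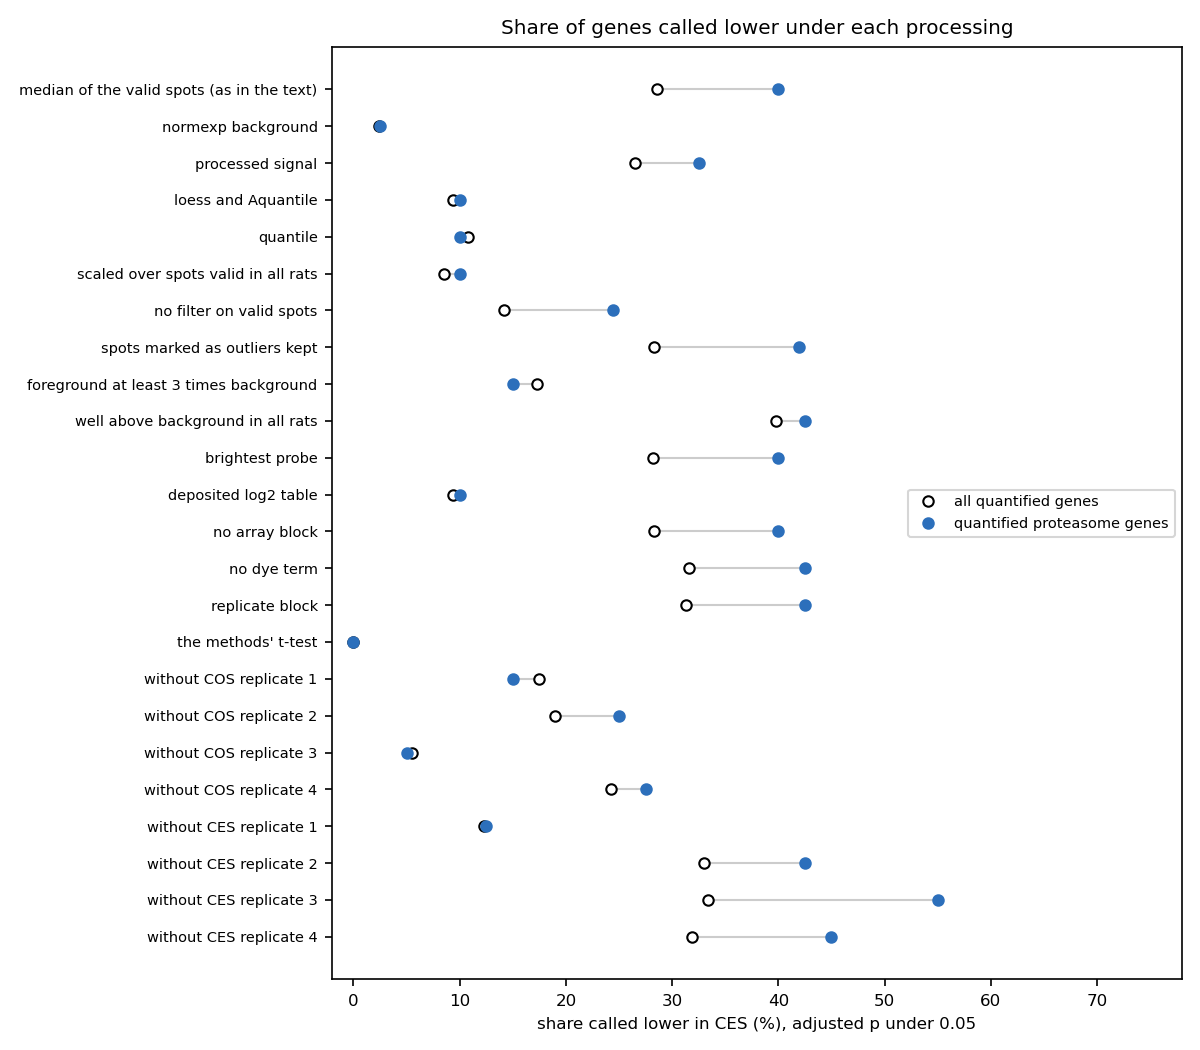
Share of genes called lower in CES (x axis, in percent) among all quantified genes (open circles) and among the quantified proteasome genes (filled circles) under each processing (y axis). The proteasome share is 40.0% in the processing of the text and 10.0% in the 4 other scalings. With the methods' t-test, adjusted here over all genes, it is 0.0%, as is the share of all genes.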

How the data were processed

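RNA from the dentate gyrus of 8 rats (4 COS, 4 CES) was hybridised to 4 two-colour Agilent arrays of 1 slide, 2 rats of a group per array, so array and group cannot be separated by a fixed term. The deposited scanner files hold spot intensity as quantified by the authors with Agilent Feature Extraction 10.7.3.1 (per the file headers, probes were placed on rn4). A second table from the authors holds log2 values that their own iterative procedure had normalized, and it served as an alternative only. Other columns of the scanner files, such as the marks for spots well above background, were read as deposited.

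The background median was subtracted from the mean signal. Spots were kept where the foreground reached 2 times the background in all 8 rats and no outlier mark was set (26294 spots, with 1593 of 43379 non-control spots marked). Signals were divided by the channel's median over its valid spots and averaged by gene, giving 20825 genes. Names came from RefSeq accessions (50 of 54 member spots matched) or from the file. limma 3.58.1 in R 4.3.3 was fitted with dye as a fixed term and array as a random block (estimated correlation -0.01), and two-sided p-values were adjusted by Benjamini-Hochberg across every quantified gene. The scripts were tested on simulated data. The number of arrays limits the precision, and p-values measure the spread between these rats.

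Single members were named by role (catalytic and immunoproteasome subunits, activators, chaperones, ubiquitin receptors and deubiquitinase, Psmd11, Psmd12), and in each subgroup the 3 with the largest difference relative to all genes were added. Psma6, Psma1, Psma4, Psma7, Psmb1 to Psmb4, Psmb11, Psmd1, Psmd7, Psmd8 and Psmd10 were named besides, to account for every call or missing value. The members and lists were chosen with earlier results of these data known. Alternatives were normexp, the processed signal, loess with Aquantile, quantile, another scaling, other spot filters, the brightest probe, no block, no dye term, the replicate block, the methods' t-test, the log2 table, each rat left out and, added after seeing the data, outlier-marked spots kept. The methods' t-test was adjusted here by Benjamini-Hochberg over every quantified gene. The published methods instead corrected for redundant spots and added a fold-change cut-off for each gene, which was not applied.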

Additional observations from a re-analysis of the deposited data

Results flagged for a closer look

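In 80 groups of 4 rats (40 genes, 2 groups) the highest or lowest rat was set against the other 3, and 6 values stood farther from the rest than Dixon's critical value allows. Chance alone flags about 1 in 20 such groups. In CES, replicate 3 was above the other rats for Psma2 (4.76), Psmb7 (5.82) and Psmc6 (5.00). In COS, replicate 3 was above the others for Psmd12 (6.48) and Psmd14 (5.18), and replicate 4 was below the others for Psme1 (5.23). Both replicates numbered 3 were labelled with Cy3 and had the highest median of all genes in their group, 1.20 in COS and 0.79 in CES. The part of dye and scaling in these values was not tested.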

How the results depend on the processing

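The median difference of the proteasome genes relative to all genes kept its sign in every alternative run, from -0.05 with normexp to -0.18 without a spot filter. The count of genes called lower (16) did not keep its size. It was 1 with normexp, 4 with loess and Aquantile, 4 with quantile, 4 with the median over spots valid in every rat and 4 with the deposited table, 10 without a spot filter, 6 with a foreground of 3 times background, and 0 with the methods' t-test (18 at an unadjusted p under 0.05, 19 with limma). Of all genes, 2.36% were called lower with normexp and 8.56% to 10.8% in the scalings that gave 4. The share was 14.2% without a spot filter, 17.3% at 3 times background and 0.0% with the methods' t-test. Genes called higher were 2, against 0, with loess and Aquantile, quantile, the scaling over shared spots and the deposited table. Leaving out 1 rat gave 2 to 22 genes called lower (2 without COS replicate 3, 5 without CES replicate 1, 6 without COS replicate 1, 10 without COS replicate 2, 22 without CES replicate 3) and 0 to 0 higher. The share of all genes called lower ran from 5.48% without COS replicate 3 to 33.4% without CES replicate 3. It was 12.3% without CES replicate 1 and 17.5% without COS replicate 1.

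The median of the beta genes and of the whole 20S core relative to all genes, -0.04, turned to 0.031 with normexp and 0.0035 with spots well above background, and ran from -0.124 without CES replicate 3 to 0.034 without CES replicate 1, with 0.0171 without COS replicate 1. Over single genes, 672 values kept their direction and call status, 84 values of genes not called turned in sign without a call, 144 lost a call and 20 gained one. The causes were not tested.

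Replicate numbers are shared between the groups. With the number as a replicate block 17 proteasome genes were called lower and 0 higher, where 31.3% of all genes were called lower and 5.75% higher. Same-numbered rats deviated together at r = 0.21 to 0.35, and other rats of the same dye at r = 0.21 to 0.44. A shared number thus went with no higher r than a shared dye. With the dye removed, r of same-numbered rats was -0.28 to 0.09. The dye effect was estimated from these same rats, which pulls r down between rats of 1 dye. Those last values therefore cannot decide whether the numbers pair the rats.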
